A study of Rattus norvegicus with 6 samples.

Results

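Ribosome biogenesis factors are the proteins that transcribe, cut, modify and assemble ribosomal RNA into ribosomal subunits, and 42 rat genes for them were followed here in liver. Members were found by matching the RefSeq accession of each array probe to the gene's symbol, which placed 36 of the 42 genes on the array, among 45877 genes and unnamed accessions in all. All 36 gave signal well above background on all 6 arrays, and so passed the filter that left 28995 features for testing. Nhp2, Nop14, Wdr75, Rrp12, Tsr1 and Rrp1b had no matching probe and were not analysed here.

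The study measured liver RNA of 3 male Sprague-Dawley (Crl:CD(SD)) rats dosed with bromodichloromethane at 200 mg/kg/day, set against 3 given corn oil. Bromodichloromethane is a trihalomethane, a by-product of chlorinating drinking water, and corn oil is the vehicle. Each animal had its own 1-colour Agilent array, and the labels describe no transgene, knockout or pooling. The rats were bought at 5 weeks of age. By the array barcodes, bromodichloromethane replicate 1 lay on slide 1 with all 3 corn oil animals. Bromodichloromethane replicates 2 and 3 lay on slide 2, which held no control. In the comparison of groups, a difference between slides therefore cannot be fully told apart from one of treatment. The length of dosing is unsettled, since the treatment protocol gives 9 weeks and the series' design text gives 28 days.

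Ribosomal RNA is transcribed in the nucleolus by RNA polymerase I as one long precursor. Small nucleolar ribonucleoproteins guide its methylation and pseudouridylation, and large complexes of processing factors then cut it and fold it into the small and large subunits. In liver the pathway is known for its activity during growth and regeneration, and Myc, bound to DNA with its partner Max, is a well known activator of many of its genes.

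Myc and Max bind the letters CACGTG, called an E-box, which read the same on both strands. RefSeq promoters of the GRCr8 assembly, taken from 250 bases before to 50 bases after each gene's start, were available for 37 of the 42 members and were searched for these 6 letters. They were found in 13 of the 37 (35.1%), against 6.65% of all 27457 promoters and 7.27% of the 19005 promoters of protein-coding genes. The members' promoters held 15 copies, of which 11 began within 50 bases of the start. Rrs1, Wdr43, Myc, Bop1 and Gnl2 had no promoter entry. The following windows of 30 bases are shown because they carry the same letters in genes whose measured signals, given further on, lay above, near and below those of the controls; they read 5′ to 3′ on the gene's strand, with the E-box in capitals.
Mybbp1a: gcagtttctacaCACGTGtgcgagcacagg
Mybbp1a: gtctttcgagccCACGTGtttggttcagca
Ebna1bp2: gcgtcttgctggCACGTGgagtggcagccg
Nop2: tgaactcttccccaagtgCACGTGgagcgg
Fbl: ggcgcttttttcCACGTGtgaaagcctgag
Bysl: tagccggcttcaCACGTGtaaactttgtgg
Gnl3: agttccagttcgCACGTGgcgcccgagacg
The Mybbp1a windows lie at chr10:57555290-57555319 and chr10:57555445-57555474 on the + strand, with E-boxes beginning at positions -156 and -1, where 1 is the first base of the transcript. Those of Ebna1bp2 (chr5:137433552-137433581), Nop2 (chr4:159618986-159619015), Fbl (chr1:92597416-92597445) and Bysl (chr9:20880361-20880390) are on the + strand, with E-boxes beginning at positions 31, 39, 22 and 33. The Gnl3 window (chr16:6219790-6219819) is on the - strand, and its E-box begins at position -25. A match is a description of the letters and not a measured binding site.

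None of the 36 measured members passed an adjusted p of 0.05 in either direction (limma, Benjamini-Hochberg over all features), whereas 5.96% of all features passed it as higher and 3.41% as lower in bromodichloromethane livers. At an unadjusted p under 0.05, 3 members (8.33%) were reached, namely Rrs1, Mybbp1a and Nob1, against 27.5% of all features. Fitted log2 fold changes, bromodichloromethane over corn oil, ran from -0.32 to 0.34 among the members, with a median of 0.05 against 0.00 over all features. The median absolute log2 fold change was 0.12 among the members and 0.20 over all features. The members' fitted changes were thus smaller in size than those of the array at large, a difference that was not tested.

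These small values came with narrow errors. The 95% interval of the fold change stayed within 1.5-fold either way for 31 of the 36 members (86.1%), against 52.97% of all features. The exceptions were Myc, Polr1b, Rrn3, Nop56 and Mybbp1a. The median SE of a log2 fold change was 0.11 among the members and 0.13 over all features. A miss of the threshold does not show equal levels, and 3 animals per group limit what any of these intervals can exclude. In RNA from whole liver, fewer cells of a type and less RNA per cell cannot be told apart.

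**Figure D1:**
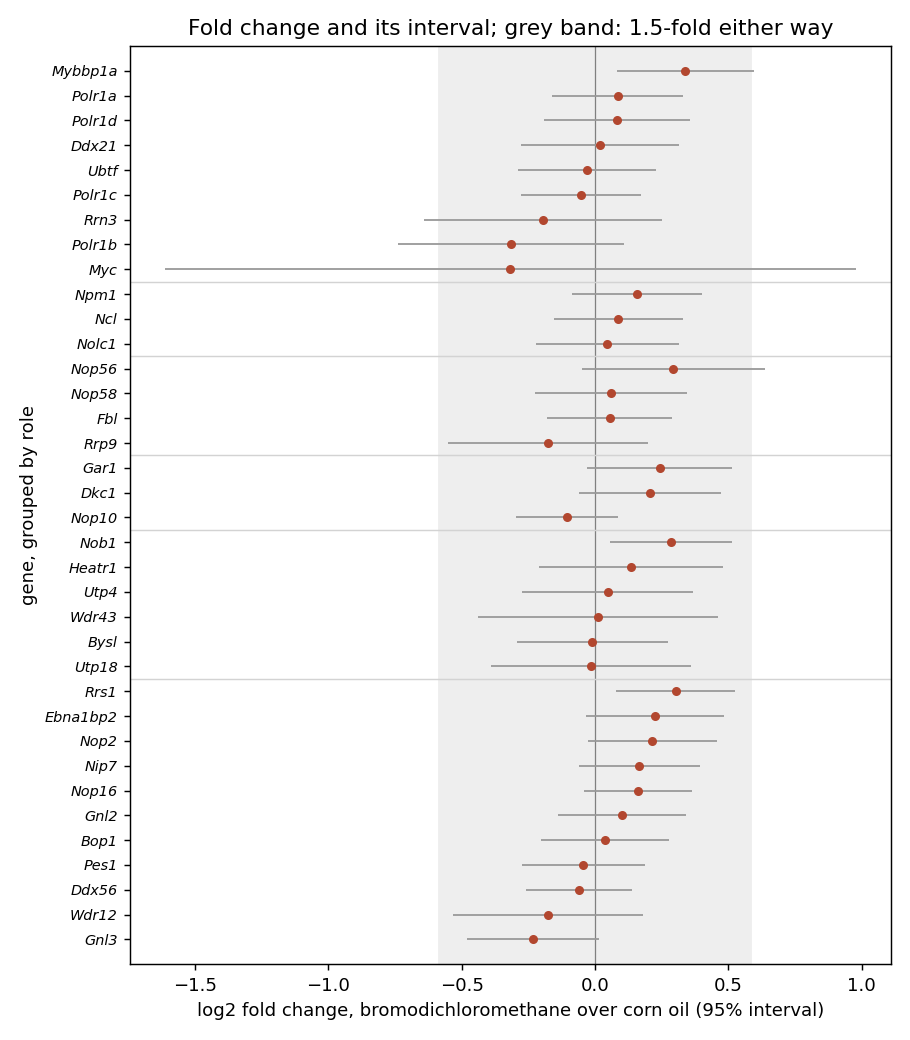
Log2 fold change, bromodichloromethane over corn oil, on the horizontal axis (points) with its 95% interval (lines) for the 36 measured members, grouped by role from RNA polymerase I at the top to the large subunit at the bottom; the grey band marks 1.5-fold either way. Intervals of 31 members lie inside the band, and Myc has the widest; with scaling by spiked-in controls all 36 values would be above 0.

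Scaling matters for the sign of such small values. Fold changes here are relative to each array's 75th percentile, and 23 of the 36 members (63.9%) were above 0, against 50.2% of all features. When arrays were instead scaled by 8 spiked-in E1A control probes, the median of all features moved to 0.48 and that of the members to 0.53, a uniform shift under which all 36 lay above 0 and 23 (63.9%) passed the threshold, against 43.7% of all features. The mean log2 signal of these control probes, relative to the 75th percentile, was 2.37 to 2.75 in bromodichloromethane livers and 2.99 to 3.07 in corn oil livers. Relative to the median of all features the members' median was 0.05 under both scalings, which a uniform shift leaves unchanged by construction. The values that follow use the 75th percentile, and each animal's level is given as a multiple of it, called scaled signal.

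The 3 signals of each group did not overlap for 6 members higher in bromodichloromethane livers (16.7%, against 18.4% of all features), which were Mybbp1a, Nop16, Nop2, Ebna1bp2, Rrs1 and Nob1. For 2 members, Nop10 and Gnl3, the 3 signals did not overlap and were lower (5.56%, against 16% of all features). The higher share was thus near the background, and the lower share was below it.

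RNA polymerase I and its regulators supply the precursor. Of 9 members, 4 lay above 0, and the median log2 fold change was -0.03. Mybbp1a, a nucleolar protein that binds Myb, had the largest value of all members. Its scaled signal was 2.30, 2.58 and 2.11 in bromodichloromethane livers, against 1.74, 1.91 and 1.86 in corn oil livers. All 3 dosed animals were above all 3 controls. The log2 fold change was 0.34 (SE 0.11, adjusted p = 0.10), and the second probe of the gene gave 0.30.

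Myc, the transcription factor that drives ribosome biogenesis genes, showed the widest spread of all members. It read 2.41, 2.5 and 1.5 in bromodichloromethane livers, against 5.95, 2.06 and 1.43 in corn oil livers. A single corn oil animal, replicate 1, stood far above the other 5, which overlapped. The log2 fold change was -0.32 (SE 0.53, adjusted p = 0.75) with all animals, 0.28 (adjusted p = 0.60) without that animal and 0.17 with spike-in scaling. Max, the partner of Myc, read 0.588, 0.524 and 0.534 in bromodichloromethane livers, against 0.524, 0.622 and 0.514 in corn oil livers, and its log2 fold change was -0.0086 (SE 0.11, adjusted p = 0.97).

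The subunits of the polymerase itself overlapped between groups. Polr1b, one of its catalytic subunits, read 0.471, 0.520 and 0.449 in bromodichloromethane livers, against 0.489, 0.761 and 0.568 in corn oil livers, for a fitted log2 difference of -0.32 (SE 0.17, adjusted p = 0.30). The lowest corn oil animal lay within the range of the dosed animals. The other catalytic subunit, Polr1a, had a log2 fold change of 0.09, and the subunits shared with RNA polymerase III had 0.08 for Polr1d and -0.05 for Polr1c. Rrn3, the initiation factor that brings the polymerase to the promoter, had -0.19 (SE 0.18), or 0.066 on slide 1 alone and 0.29 with spike-in scaling.

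Ddx21, a nucleolar helicase that couples transcription to processing, was the member of this role nearest to 0. It read 5.87, 5.54 and 4.64 in bromodichloromethane livers, against 4.98, 5.75 and 5.07 in corn oil livers. The dosed animals held both the highest and the lowest value, and the log2 fold change was 0.02 (SE 0.12, adjusted p = 0.94). Ubtf, which opens ribosomal DNA for transcription, gave -0.03 from the probe that stood for it and -0.10 from a further probe of the same transcript. A probe for another of its transcripts gave 0.21 (adjusted p = 0.44 among all probes), the widest disagreement between probes of any member.

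The nucleolar scaffold proteins give the nucleolus its structure and chaperone its particles. All 3 members lay above 0, the largest being Npm1, nucleophosmin, a chaperone of histones and ribosomal proteins. Npm1 read 45.2, 52.0 and 48.8 in bromodichloromethane livers, against 43.2, 40.7 and 47.0 in corn oil livers. One dosed animal lay within the control range, and the log2 fold change was 0.16 (SE 0.10, adjusted p = 0.36). Its other 2 probes gave 0.33 and 0.31, both with overlapping groups, and the mean of its probes gave 0.27 (adjusted p = 0.26). Nucleolin, Ncl, which binds nascent precursor RNA, read 17.6, 20.6 and 18.3 in bromodichloromethane livers, against 17.1, 17.1 and 18.9 in corn oil livers. The groups overlapped, and its log2 fold change was 0.09 (SE 0.10, adjusted p = 0.62). Nolc1, a chaperone of small nucleolar ribonucleoproteins, read 9.50, 9.14 and 7.58 in bromodichloromethane livers, against 8.25, 8.56 and 8.47 in corn oil livers. Its dosed animals lay on both sides of the controls (log2 fold change 0.05, SE 0.11, adjusted p = 0.83), and its 4 probes ran from -0.02 to 0.13.

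Box C/D small nucleolar ribonucleoproteins methylate ribosomal RNA. Nop56, a core scaffold protein of these particles, read 12.0, 10.7 and 8.71 in bromodichloromethane livers, against 9.19, 8.43 and 7.83 in corn oil livers. Only the lowest dosed animal lay within the control range. The log2 fold change was 0.29 (SE 0.14, adjusted p = 0.24), and the gene's 4 probes ran from 0.29 to 0.39. Its paralog and partner Nop58 had a log2 fold change of 0.06 with overlapping groups.

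Fibrillarin, Fbl, the methyltransferase of the particle, was the member of this role nearest to 0. It read 29.9, 35.7 and 31.9 in bromodichloromethane livers, against 31.1, 30.8 and 31.7 in corn oil livers. The 3 controls were bracketed by the dosed animals, and the log2 fold change was 0.06 (SE 0.10, adjusted p = 0.76). Rrp9, a protein of the particle that takes part in early cleavage of the precursor, read 1.10, 1.38 and 1.39 in bromodichloromethane livers, against 1.45, 1.24 and 1.70 in corn oil livers. The ranges overlapped, and the log2 fold change, -0.18 (SE 0.15, adjusted p = 0.51), was 0.31 with spike-in scaling.

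Box H/ACA particles turn uridine into pseudouridine, and their core proteins also serve telomerase. The 3 measured members differed in sign. Gar1, a core protein, read 0.772, 0.735 and 0.644 in bromodichloromethane livers, against 0.577, 0.668 and 0.574 in corn oil livers. Dkc1, dyskerin, the pseudouridine synthase itself, read 5.98, 7.22 and 7.43 in bromodichloromethane livers, against 5.77, 5.90 and 6.13 in corn oil livers. Both genes had 1 dosed animal inside the control range, with log2 fold changes of 0.24 (SE 0.11, adjusted p = 0.23) for Gar1 and 0.21 (SE 0.11, adjusted p = 0.28) for Dkc1. Nop10, a small core protein, read 32.2, 33.6 and 34.4 in bromodichloromethane livers, against 35.9, 35.5 and 36.4 in corn oil livers. All 3 dosed animals were below all 3 controls, by a small margin (log2 fold change -0.11, SE 0.08, adjusted p = 0.44), although spike-in scaling turned the value to 0.38. On its second probe (-0.09) the groups overlapped.

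**Figure D2:**
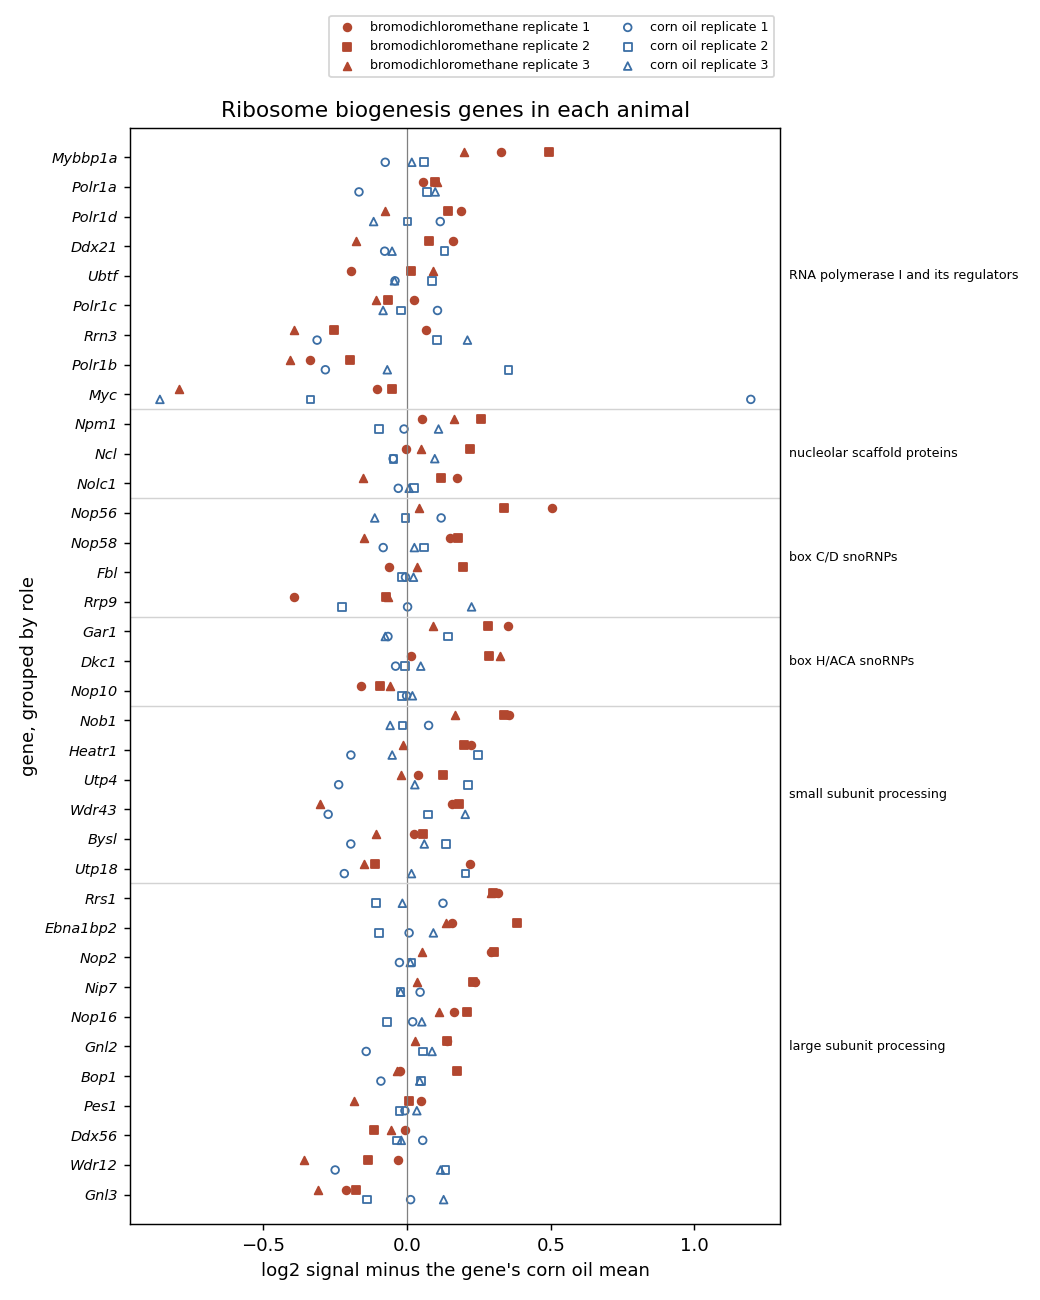
Log2 signal of each animal minus the gene's mean in corn oil livers (horizontal axis) for the 36 measured members, in the order of their roles; filled red symbols are bromodichloromethane animals and open blue symbols are corn oil animals, with 1 shape per replicate. Symbols of both groups mix for 28 members, and the corn oil animal at the far right is the high Myc value.

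Small subunit processing was represented by 6 measured members of 10. Nob1, the endonuclease that makes the last cut of the small subunit RNA, had the largest value. It read 3.16, 3.12 and 2.77 in bromodichloromethane livers, against 2.60, 2.44 and 2.37 in corn oil livers. The groups did not overlap, and the log2 fold change was 0.29 (SE 0.09, adjusted p = 0.11).

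The early-acting factors of this subunit had overlapping groups. Heatr1, a protein of the complex that binds the start of the precursor, read 0.715, 0.704 and 0.607 in bromodichloromethane livers, against 0.536, 0.728 and 0.592 in corn oil livers, giving values near those of the controls (log2 fold change 0.13, SE 0.14, adjusted p = 0.59). The further early-acting factors Utp4, Wdr43 and Utp18 had 0.05, 0.01 and -0.01. Bysl, bystin, which joins late precursors of the subunit, read 1.36, 1.39 and 1.24 in bromodichloromethane livers, against 1.17, 1.47 and 1.40 in corn oil livers. The dosed animals lay inside the control range, and the log2 fold change was -0.0096 (SE 0.12, adjusted p = 0.97).

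Large subunit processing held 11 measured members of 12, of which 7 lay above 0, with a median log2 fold change of 0.10. Rrs1, which helps bring a small ribosomal RNA and its proteins into the large subunit, had the smallest adjusted p of all members. It read 1.70, 1.68 and 1.67 in bromodichloromethane livers, against 1.49, 1.27 and 1.35 in corn oil livers. The 3 dosed animals agreed closely and lay above every control. The log2 fold change was 0.30 (SE 0.09, adjusted p = 0.096).

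Non-overlapping higher signals were also seen for Nop2, Nop16 and Ebna1bp2. Nop2, a methyltransferase of the large subunit RNA, read 8.33, 8.38 and 7.05 in bromodichloromethane livers, against 6.68, 6.88 and 6.85 in corn oil livers (log2 fold change 0.21, SE 0.10, adjusted p = 0.23). Nop16, a nucleolar factor of large subunit assembly, read 19.0, 19.6 and 18.3 in bromodichloromethane livers, against 17.2, 16.2 and 17.6 in corn oil livers (log2 fold change 0.16, SE 0.08, adjusted p = 0.27). Ebna1bp2, whose yeast counterpart acts in early assembly of the subunit, read 19.3, 22.6 and 19.0 in bromodichloromethane livers, against 17.4, 16.2 and 18.5 in corn oil livers (log2 fold change 0.22, SE 0.11, adjusted p = 0.24). The other 2 probes of Nop2 gave 0.11 and 0.15, and on the first of these the groups overlapped. For Nop2 and Ebna1bp2 the lowest dosed animal exceeded the highest control by little.

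Gnl3, nucleostemin, a nucleolar GTPase, ran the other way. It read 24.1, 24.7 and 22.5 in bromodichloromethane livers, against 28.1, 25.3 and 30.5 in corn oil livers. No dosed animal reached the lowest control, the log2 fold change was -0.23 (SE 0.10, adjusted p = 0.20), and its second probe gave -0.21. With spike-in scaling the value was 0.25.

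Pes1, Bop1 and Wdr12 form a complex that processes the large subunit precursor, and none stood apart. Bop1 read 2.23, 2.56 and 2.22 in bromodichloromethane livers, against 2.13, 2.34 and 2.34 in corn oil livers, which gave a log2 fold change of only 0.04 (SE 0.10, adjusted p = 0.84). Those of Pes1 and Wdr12 were -0.04 and -0.18. The remaining members, the assembly factor Nip7, the GTPase Gnl2 and the helicase Ddx56, had 0.17, 0.10 and -0.06, with overlapping groups.

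Members with and without the E-box letters had close medians. The 10 measured members with the letters had a median log2 fold change of 0.05 (from -0.23 to 0.34), with 6 above 0. The 21 measured members with a promoter entry and without the letters had a median of 0.06 (from -0.32 to 0.29), with 13 above 0. No test was made of this comparison.

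Animals differed in ways the groups did not explain. Bromodichloromethane replicate 3 had the lowest signal of its group for 27 of 36 members, and replicate 2 for 1. Relative to the corn oil mean, the members' median log2 signal was 0.06, 0.14 and -0.03 in bromodichloromethane replicates 1, 2 and 3. In the corn oil animals it was -0.04, 0.01 and 0.02. Leaving out bromodichloromethane replicate 2 brought the members' median log2 fold change to 0.01, and leaving out replicate 3 brought it to 0.11. Bromodichloromethane replicate 1 shared a slide with all 3 corn oil animals, and on that slide alone, with that 1 dosed animal, the median was 0.06, with 25 of 36 above 0 and none past the threshold.

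The same pathway was read more widely from 134 further factors, of which 111 were measured and 67 lay above 0. The median log2 fold change of these was 0.06, close to that of the members, with 1 gene past the threshold in each direction. Bud23, the methyltransferase of the small subunit RNA, read 6.66, 6.43 and 6.14 in bromodichloromethane livers, against 4.90, 4.94 and 5.21 in corn oil livers. Its signal rose without overlap (log2 fold change 0.35, SE 0.08, adjusted p = 0.0498). It passed the threshold in none of the fits that left out an animal (log2 fold change 0.33 to 0.38, adjusted p from 0.093 to 0.15). The second probe of Bud23 gave 0.32 (adjusted p = 0.13 among all probes), and the mean of its probes gave 0.34 (adjusted p = 0.070). On slide 1 alone, with 1 dosed animal, the log2 fold change of the probe that stood for Bud23 was 0.41. Eif6, which keeps immature large subunits from joining small ones, read 23.8, 22.1 and 20.3 in bromodichloromethane livers, against 36.5, 32.5 and 36.4 in corn oil livers. Its signal fell without overlap (log2 fold change -0.67, SE 0.10, adjusted p = 0.019), but its second probe gave -0.0042 (adjusted p = 0.98 among all probes), slide 1 alone, with 1 dosed animal, gave -0.56 (adjusted p = 0.19), and spike-in scaling gave -0.19 (adjusted p = 0.31). The mean of its probes gave -0.34 (adjusted p = 0.090). Among the fits that left out an animal, Eif6 passed only without bromodichloromethane replicate 1, and the others gave an adjusted p from 0.053 to 0.077.

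By step, the median log2 fold change was 0.04 for 11 further RNA polymerase I factors, 0.10 for 43 large subunit factors and 0.00 for 40 small subunit factors. For 7 small nucleolar ribonucleoprotein assembly factors it was -0.04, and for 10 genes of the exosome, which trims precursor RNA, it was 0.02. Of 6 measured genes of the Myc network, Max included, 2 lay above 0, and the median log2 fold change was -0.02 (from -0.06 to 0.36). The 2 above 0 were higher without overlap, as were 18.4% of all features, and none of the 6 passed the threshold.

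Genes of the structural proteins that the pathway assembles into subunits gave different values. All 75 measured genes of cytosolic ribosomal proteins, a list added after the data were seen, lay above 0 (median log2 fold change 0.36). Of the 75, 24 passed the threshold as higher and none as lower, against 5.96% and 3.41% of all features respectively. Over 20 alternative settings 74 to 75 lay above 0. The number past the threshold ranged from 0 to 51 over the 19 settings other than spike-in scaling. With spike-in scaling it was 74, where 43.7% of all features passed as higher. It was 0 on slide 1 alone, where 1 dosed animal was set against 3 controls and the median was 0.41 with all 75 above 0. It was also 0 with no filter on dim probes, among others. Without bromodichloromethane replicates 1, 2 and 3 it was 3, 0 and 0, and without corn oil replicates 1, 2 and 3 it was 7, 0 and 4. The biogenesis members' median over these settings was 0.01 to 0.11, or 0.53 with spike-in scaling. The difference between the lists was not tested.

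**Figure D3:**
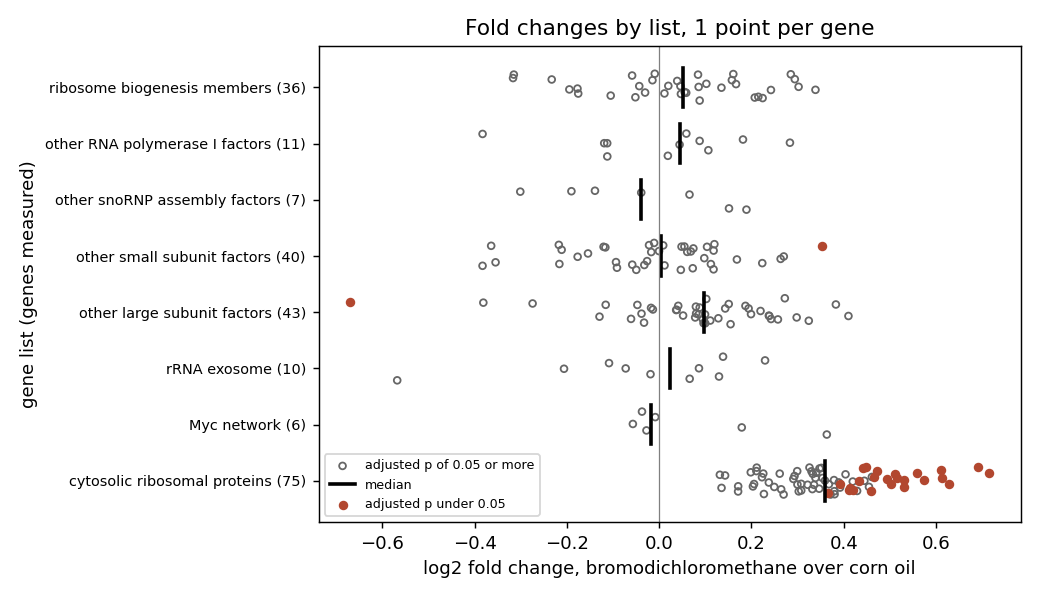
Log2 fold change, bromodichloromethane over corn oil (horizontal axis), of each measured gene in the biogenesis members, 6 further lists of the pathway and the cytosolic ribosomal proteins; red points have an adjusted p under 0.05 and black bars are medians. The ribosomal proteins centre on 0.36 and the members on 0.05; spike-in scaling moves these to 0.84 and 0.53.

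**Figure D4:**
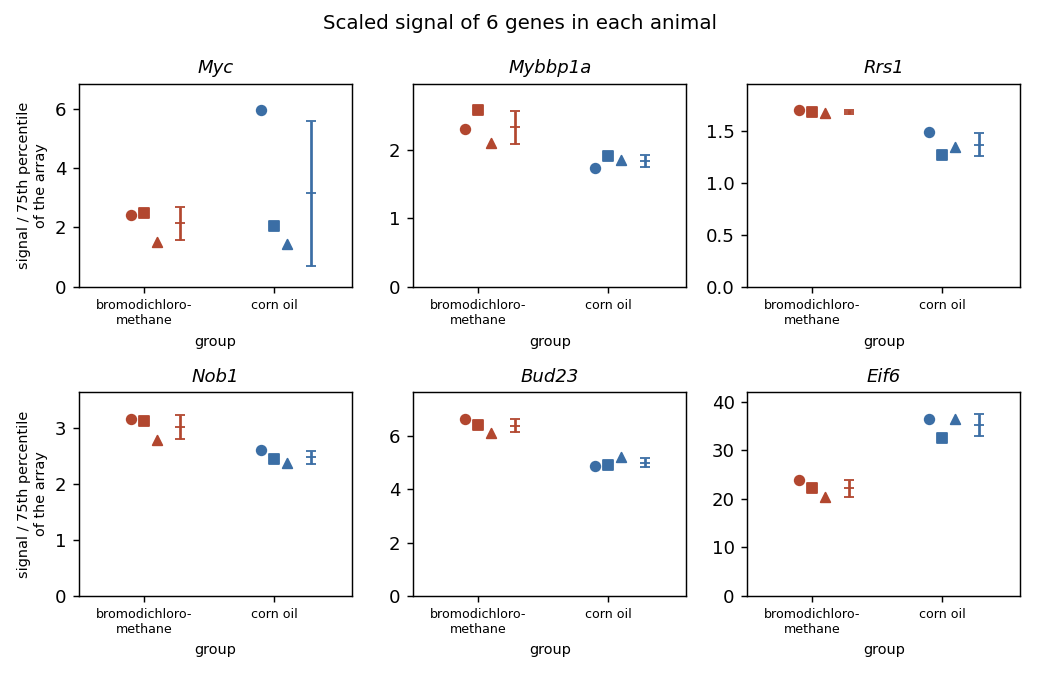
Scaled signal (multiples of the array's 75th percentile, from 0) of Myc, Mybbp1a, Rrs1, Nob1, Bud23 and Eif6 in each bromodichloromethane animal (red) and corn oil animal (blue), with mean and SD beside the points. Groups are apart for all genes but Myc, where 1 corn oil animal at 5.95 widens the SD.

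Markers of cell types and cell states were read from the same arrays, and their part in the results above was not tested. All 7 hepatocyte markers were well above background on every array. Their summed scaled signal was 2909 to 3317 in bromodichloromethane livers and 3414 to 3775 in corn oil livers. Such a sum is weighted to the brightest markers. Of the 7 markers, 2 lay above 0, and the median log2 fold change was -0.23 (from -0.50 to 0.19). Sums here and below use scaled signal only. Spike-in scaling adds a uniform amount to every log2 fold change, so a lower sum may not hold under it. Among the hepatocyte markers, Serpina1 fell by 0.50 in log2 units (adjusted p = 0.023), or by 0.02, short of the threshold, with spike-in scaling. Quantile normalization also ended this call (-0.23, adjusted p = 0.15), as did normexp with quantile normalization (-0.15, adjusted p = 0.24). The 4 endothelial markers summed to 37.6 to 40.1 in bromodichloromethane livers and 44.8 to 47.7 in corn oil livers, and Lyve1 fell by 0.56 (adjusted p = 0.030; -0.07 and short of the threshold with spike-in scaling). The 4 bile duct markers summed to 2.46 to 3.62 in bromodichloromethane livers and 1.64 to 1.81 in corn oil livers, with Epcam higher by 1.12 (adjusted p = 0.021). Epcam alone read 1.94, 2.48 and 2.38 in bromodichloromethane livers, against 1.20, 1.14 and 0.817 in corn oil livers, while the groups overlapped for Krt19, Krt7 and Spp1.

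The 7 lymphocyte markers, Cd3e included, summed to 2.75 to 3.34 in bromodichloromethane livers and 2.21 to 2.61 in corn oil livers. Among them the T cell gene Cd3e was well above background on all 3 bromodichloromethane arrays and on 0 of 3 corn oil arrays. It thus entered the fit only through the group where it was brighter. Neither its call nor the difference in the sum that includes it is used here. The 6 other lymphocyte markers were well above background on all 6 arrays. All of them lay above 0, the lowest at a log2 fold change of 0.14, against 50.2% of all features, and none passed the threshold. Sums overlapped between groups for 8 macrophage markers (101 to 134 in bromodichloromethane livers, 111 to 148 in corn oil livers) and 7 stellate cell markers (11.3 to 12.5 in bromodichloromethane livers, 11.3 to 15.7 in corn oil livers), with none past the threshold. The 17 proliferation markers summed to 20.8 to 23.9 in bromodichloromethane livers and 18.1 to 24.2 in corn oil livers, again with none past the threshold. Of these 17, 14 lay above 0, with a median log2 fold change of 0.13. The 9 targets of p53 summed to 63.2 to 66.2 in bromodichloromethane livers and 67.4 to 79.7 in corn oil livers. Bbc3, which promotes cell death, rose by 0.61 in log2 units (adjusted p = 0.027). The others did not pass, although Sesn2 (log2 fold change -0.71, adjusted p = 0.083) and Cdkn1a (-0.28, adjusted p = 0.17) were lower without overlap. Of the 9 targets, 6 lay above 0, with a median log2 fold change of 0.10, and 2 were higher without overlap. Leaving out single animals cost Serpina1 and Lyve1 the threshold in 6 of 6 fits, Bbc3 in 5 and Epcam in 3. On slide 1, which holds 1 dosed animal against 3 controls, none of these passed, with log2 fold changes of 0.91 for Epcam, 0.60 for Bbc3, -0.58 for Lyve1 and -0.55 for Serpina1.

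The share of probes well above background was 65.3% to 66.9% on bromodichloromethane arrays and 61.3% to 63.9% on corn oil arrays, without overlap, and none was saturated. The part of this difference in the results was not tested. Correlations of log2 signal were 0.991 to 0.994 within the bromodichloromethane group, 0.989 to 0.991 within the corn oil group and 0.981 to 0.985 between groups.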

How the data were processed

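The submitters' processing notes name Agilent Feature Extraction 10.7 as the tool that turned scans into intensities. The deposited scanner files hold linear, background-subtracted fluorescence intensity per spot, per the file headers; a deposited value table holds a linear ratio, which from its values is the signal over the array's 75th percentile (within 1% for at least 96.4% of probes), and served as an alternative. Processed intensities were taken to log2 minus each array's 75th percentile, which lay between 670 and 825 units. Control spots (1319 of 62976) and 27 probes with outlier flags were left out. Of 61657 probes, 27460 (44.5%) matched 1 symbol through RefSeq accessions (GRCr8, a later build than the arrays', used for names and promoters only). A feature needed signal well above background on all 3 arrays of a group, and the brightest probe stood for a gene. The comparison used limma 3.58.1 (R 4.3.3; lmFit, eBayes, two-sided, Benjamini-Hochberg over 28995 features), which was tested on simulated data. SE is the moderated standard error, and the threshold was an adjusted p of 0.05.

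The members and lists were chosen with earlier results of these data known. Per role, the 2 members with the largest absolute fold change and the 1 with the smallest were named with every animal's value, as were up to 4 genes past the threshold per further list, and Myc and Max. Nop2, Nop16, Ebna1bp2, the remaining members, Sesn2, Cdkn1a, Krt19, Krt7 and Spp1 were named outside that rule, after their values were seen. Normexp, an alternative, used the median spot signal in place of the mean. Other alternatives were scaling, filters, probe averaging, eBayes options, array weights, slide, replicate block and leaving out each animal. The labels describe separate animals. Same-numbered animals did not deviate together, so the numbers were not taken as pairs.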

Additional observations from a re-analysis of the deposited data

How the results depend on the processing

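No member passed the threshold in 19 of 20 alternatives, and 23 did, all higher, with spike-in scaling. Features past the threshold numbered 2715, but 12996 with spike-in scaling, 4126 with array weights, 609 with no filter on dim probes, 350 with slide as a block, 120 on slide 1 alone and 353 with the replicate block, which called no member and no ribosomal protein gene and is not taken as a pairing. Without 1 animal they numbered 335 to 1232: 1171, 335 and 749 without bromodichloromethane replicates 1, 2 and 3, and 1232, 461 and 1060 without corn oil replicates 1, 2 and 3. The share of calls that were higher was 63.6%, and 74.2% with median centring, 97.6% with spike-in scaling, 54% with slide as a block, 43.3% on slide 1 alone and 49.6% without bromodichloromethane replicate 2. The members' median was 0.11 with median centring, 0.53 with spike-in scaling and 0.0097 to 0.11 without 1 animal. The cause of these shifts was not tested.

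The following signs turned among the members named by rule and Max. Median centring gave 0.047 for Bysl and 0.048 for Max. Spike-in scaling gave 0.17 for Myc, 0.31 for Rrp9, 0.38 for Nop10, 0.47 for Bysl, 0.25 for Gnl3 and 0.47 for Max. Normexp with quantile normalization gave -0.039 for Ddx21, -0.054 for Fbl, 0.035 for Bysl, -0.074 for Bop1 and 0.00077 for Max. Normexp with the 75th percentile gave -0.011 for Ddx21, 0.057 for Bysl and -0.060 for Bop1. Slide as a block and slide 1 alone both gave -0.0045 for Ncl, -0.064 for Fbl, 0.022 for Bysl, -0.023 for Bop1 and 0.093 for Max. Without 1 animal, Ddx21 ran from -0.051 to 0.12, Nolc1 from -0.018 to 0.15, Fbl from -0.015 to 0.11, Bop1 from -0.029 to 0.075, Max from -0.060 to 0.079, Bysl from -0.11 to 0.058 and Myc from -0.75 to 0.28. Of the 23 members above 0, 15 stayed above 0 in all 20 alternatives. Spike-in scaling adds a uniform amount to every gene, so all 13 members below 0 turned with it by construction. Counting that setting, Rrn3 turned in 3 alternatives, Polr1c in 7, Utp18 in 9 and Ubtf in 6, whereas Polr1b, Rrp9, Nop10, Wdr12 and Gnl3 turned with spike-in scaling only.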
